A study of Mus musculus with 4 samples.

Results

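Genes of the tumor necrosis factor (TNF) family were examined in RNA-Seq of neutrophils isolated from the mouse heart on day 3 after myocardial ischemia and reperfusion (MI/R). The genes were *Tnf* and every gene whose name starts with Tnfsf, Tnfrsf, Tnfaip, or Traf and a digit. This rule took 51 of the 25655 genes in the files, namely 13 ligands, 20 receptors, 10 genes named for TNF receptor-associated factors (TRAFs) and 8 genes named as TNF-alpha-induced proteins. A mean over 1 TPM, the unit of transcript abundance scaled by gene length and library total, in the 4 libraries was reached by 39 of the 51, made up of 8 ligands, 15 receptors, 9 Traf genes and 7 Tnfaip genes, and 27 of them had a mean over 10 TPM. The other 12 were counted only. TNF ligands are mostly trimeric membrane proteins, which can be shed, and they bind receptors that either carry a death domain or recruit TRAF adaptors. Both routes lead to NF-κB and MAP kinases, and the death domain receptors can also start apoptosis or necroptosis. In the infarcted heart, TNF is known as an early inflammatory cytokine made by infiltrating and resident leukocytes and by cardiac cells.

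Each of the 4 groups, WT SiglecF hi, WT SiglecF lo, *Cd300a-/-* SiglecF hi and *Cd300a-/-* SiglecF lo, was 1 library. CD300a is an inhibitory receptor of myeloid cells, and the *Cd300a-/-* mice lack it in every cell. The mice were males of 8 to 12 weeks on a C57BL/6 background, their left anterior descending artery was occluded for 60 minutes, and CD45.2+CD11b+Ly6G+ cells from 8 hearts were pooled for each library. The sample labels name the subsets SiglecF+ and SiglecF-. Depth was 19278243 (WT) and 17632989 (*Cd300a-/-*) gene counts for the SiglecF hi libraries and 9631901 (WT) and 10988619 (*Cd300a-/-*) for the SiglecF lo libraries, so the SiglecF lo libraries were the shallower ones. Without replicate libraries the spread within a group is unknown, and no P value is given. In sorted bulk samples, fewer cells of a type and less RNA per cell cannot be told apart.

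Levels are given in TPM, which is scaled by gene length and can be compared between genes. Differences are log2((TPM + 1) ratios), which understate the change of low genes, and a gene was counted as higher or lower past 0.5. Values in parentheses after a ratio are 95% counting intervals. They come from the Poisson error of both counts and cover counting error only. A library at 0 counts adds no error, so intervals of genes at 0 are too narrow. *Cd300a* (ENSMUSG00000034652, chromosome 11 from 114780867 to 114795480, build GRCm39) was checked first. WT libraries held 6640 of its counts (163 TPM) for SiglecF hi and 3024 (127 TPM) for SiglecF lo cells. In the *Cd300a-/-* libraries it had 27 counts (0.740 TPM) for SiglecF hi and 28 (1.06 TPM) for SiglecF lo cells, so the libraries followed their genotype labels. The scale of the subsets differed. Over the 11472 genes with a mean over 1 TPM, SiglecF hi cells had a median log2 ratio to SiglecF lo cells of 0.57 in WT and 0.64 in *Cd300a-/-* mice, against 0.03 and -0.02 between genotypes in SiglecF hi and SiglecF lo neutrophils. *S100a8* and *S100a9*, which encode calprotectin, took 2.41% and 2.78% of all TPM in the WT and *Cd300a-/-* SiglecF hi libraries and 13.8% and 17.3% in the SiglecF lo libraries. Their part in the shift was not tested. Differences between subsets are therefore also given relative to this median, as centred ratios. Some ratios are also given from TMM-scaled CPM, which are counts scaled by the trimmed mean of M values and not by gene length.

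*Tnf* (ENSMUSG00000024401, chromosome 17 from 35418357 to 35420983), the founding ligand of the family, was the most abundant of the 51 genes in both SiglecF hi libraries. It was at 1309 TPM (WT) and 1637 TPM (*Cd300a-/-*) in SiglecF hi cells, and at 333 TPM (WT) and 327 TPM (*Cd300a-/-*) in SiglecF lo cells. Among all genes it ranked 108 in WT and 80 in *Cd300a-/-* SiglecF hi neutrophils, and 451 and 439 in SiglecF lo neutrophils. Both SiglecF hi libraries were thus far above both SiglecF lo libraries, and the genotypes differed far less within a subset. The centred ratio of SiglecF hi to SiglecF lo was 1.40 in WT and 1.68 in *Cd300a-/-* mice. Between genotypes the log2 ratio of *Tnf* was 0.32 (0.29 to 0.35) in the SiglecF hi subset and -0.03 (-0.10 to 0.05) in SiglecF lo neutrophils, neither past 0.5.

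Both receptors of TNF were abundant in all 4 libraries. *Tnfrsf1b*, which encodes the TRAF-binding TNFR2, was at 562 TPM (WT) and 655 TPM (*Cd300a-/-*) in SiglecF hi cells, and at 476 TPM (WT) and 575 TPM (*Cd300a-/-*) in SiglecF lo cells. *Tnfrsf1a*, which encodes the death domain receptor TNFR1, was at 342 TPM (WT) and 372 TPM (*Cd300a-/-*) in SiglecF hi cells, and at 413 TPM (WT) and 399 TPM (*Cd300a-/-*) in SiglecF lo cells. The receptor genes spanned a narrow range where their ligand did not, and *Tnfrsf1b* was above *Tnfrsf1a* in each library. The centred ratio of SiglecF hi to SiglecF lo for *Tnfrsf1a* was -0.84 in WT and -0.74 in *Cd300a-/-* mice, and it was lower in SiglecF hi neutrophils also before centring (-0.27 and -0.10). *Tnfrsf1b* was higher in SiglecF hi neutrophils before centring (0.24 and 0.19) and lower after it (-0.33 and -0.45), so its direction between subsets depended on the scale. Between genotypes *Tnfrsf1b* had a log2 ratio of 0.22 (0.19 to 0.25) in the SiglecF hi subset and 0.27 (0.23 to 0.31) in SiglecF lo neutrophils.

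*Tnfsf14* encodes LIGHT, a ligand of HVEM and of the lymphotoxin-β receptor. Its levels were 51.0 TPM (WT) and 60.3 TPM (*Cd300a-/-*) in SiglecF hi cells and 82.7 TPM (WT) and 93.0 TPM (*Cd300a-/-*) in SiglecF lo cells. Of the 6 ligands with a mean over 10 TPM it was the only one lower in both SiglecF hi libraries than in both SiglecF lo libraries, with centred ratios of -1.26 in WT and -1.26 in *Cd300a-/-* mice. Its receptor gene *Tnfrsf14*, for HVEM, was at 9.03 TPM (WT) and 13.2 TPM (*Cd300a-/-*) in SiglecF hi cells, and at 12.2 TPM (WT) and 11.4 TPM (*Cd300a-/-*) in SiglecF lo cells. The WT SiglecF hi library was the lowest for this receptor, and the log2 ratio of *Cd300a-/-* to WT was 0.50 (0.18 to 0.82) in SiglecF hi neutrophils, at the threshold, and -0.09 (-0.47 to 0.30) in SiglecF lo neutrophils.

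*Tnfsf12* encodes TWEAK, and its receptor Fn14, a product of *Tnfrsf12a*, is induced by injury in many tissues. *Tnfsf12* was at 60.1 TPM (WT) and 59.9 TPM (*Cd300a-/-*) in SiglecF hi cells, and at 29.9 TPM (WT) and 24.8 TPM (*Cd300a-/-*) in SiglecF lo cells. *Tnfrsf12a* was at 35.2 TPM (WT) and 36.0 TPM (*Cd300a-/-*) in SiglecF hi cells, and at 14.5 TPM (WT) and 26.8 TPM (*Cd300a-/-*) in SiglecF lo cells. The ligand was higher in both SiglecF hi libraries than in the SiglecF lo libraries in TPM. After centring this difference was 0.41 in WT, under the threshold, and 0.60 in *Cd300a-/-* mice, and with TMM-scaled CPM 0.45 and 0.67. For the receptor WT SiglecF lo was the low library, and the log2 ratio of *Cd300a-/-* to WT was 0.84 (0.48 to 1.21) in SiglecF lo and 0.03 (-0.19 to 0.25) in SiglecF hi neutrophils. *Tnfsf12* overlaps the read-through gene *Tnfsfm13*, which spans *Tnfsf12* and *Tnfsf13* on the same strand of chromosome 11, so the counts of these 3 genes are uncertain one by one. *Tnfsfm13* had 27.1 TPM (WT) and 27.1 TPM (*Cd300a-/-*) in SiglecF hi cells and 7.14 TPM (WT) and 14.9 TPM (*Cd300a-/-*) in SiglecF lo cells. *Tnfsf13*, which encodes APRIL, a ligand of B cell and plasma cell receptors, had 28.5 TPM (WT) and 21.9 TPM (*Cd300a-/-*) in SiglecF hi cells and 17.2 TPM (WT) and 6.79 TPM (*Cd300a-/-*) in SiglecF lo cells. In SiglecF lo neutrophils the log2 ratio of *Cd300a-/-* to WT was 0.97 (0.63 to 1.30) for *Tnfsfm13* and -1.23 (-1.61 to -0.85) for *Tnfsf13*, in opposite directions. The counts of the 3 genes together were 1740 and 1471 in WT and *Cd300a-/-* SiglecF hi neutrophils and 460 and 465 in SiglecF lo neutrophils. As CPM, counts scaled to library totals, these were 90.3, 83.4, 47.8 and 42.3, so the locus as a whole was nearly level between genotypes in SiglecF lo neutrophils.

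*Tnfsf13b* encodes BAFF, the B cell survival factor, and was at 5.50 TPM (WT) and 7.54 TPM (*Cd300a-/-*) in SiglecF hi cells, and at 5.45 TPM (WT) and 7.98 TPM (*Cd300a-/-*) in SiglecF lo cells. It was higher in both *Cd300a-/-* libraries than in both WT libraries, with log2 ratios of 0.39 (0.18 to 0.61) in the SiglecF hi subset and 0.48 (0.21 to 0.74) in SiglecF lo neutrophils, under the threshold, though the latter passed it with TMM-scaled CPM (0.55). *Tnfrsf13b* encodes TACI, a receptor of BAFF and APRIL, and was at 24.6 TPM (WT) and 25.9 TPM (*Cd300a-/-*) in SiglecF hi cells, and at 10.2 TPM (WT) and 5.04 TPM (*Cd300a-/-*) in SiglecF lo cells. TACI transcripts were thus higher in both SiglecF hi libraries, also after centring (0.63 in WT and 1.52 in *Cd300a-/-* mice), and lowest in *Cd300a-/-* SiglecF lo neutrophils, where the log2 ratio to WT was -0.89 (-1.24 to -0.54). The genes of the other receptors of these ligands, *Tnfrsf13c* for the BAFF receptor and *Tnfrsf17* for BCMA, had a mean under 1 TPM.

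*Tnfsf9* encodes the ligand of the costimulatory receptor CD137. It was at 61.3 TPM (WT) and 69.7 TPM (*Cd300a-/-*) in SiglecF hi cells, and at 14.8 TPM (WT) and 9.98 TPM (*Cd300a-/-*) in SiglecF lo cells. Like *Tnf*, it was high in both SiglecF hi libraries, with centred ratios of 1.41 in WT and 2.05 in *Cd300a-/-* mice, the highest of the 39 genes on this scale in both genotypes. Its log2 ratio of *Cd300a-/-* to WT was 0.18 (0.03 to 0.33) in the SiglecF hi subset and -0.52 (-0.93 to -0.12) in SiglecF lo neutrophils. *Tnfrsf9*, for CD137 itself, was near the limit of 1 TPM, with 28 counts in WT and 53 in *Cd300a-/-* SiglecF hi neutrophils, and 11 in WT and 0 in *Cd300a-/-* SiglecF lo neutrophils. In TPM it was 1.17 and 2.48 in SiglecF hi and 0.787 and 0 in SiglecF lo neutrophils. Against a floor of 3 counts per library it was at least 4.05-fold lower for *Cd300a-/-* than WT SiglecF lo cells. This fold takes the 11 WT counts without their counting error. *Tnfrsf9* lies over *Camta1* on the opposite strand, and whether the counting used strand is not given in the sources used here, so reads of this pair cannot be told apart.

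*Tnfsf10* (ENSMUSG00000039304, chromosome 3 from 27371177 to 27396576) encodes TRAIL, a ligand of death receptors. It had 119 counts in WT and 219 in *Cd300a-/-* SiglecF hi neutrophils, and 126 counts in WT and 2 in *Cd300a-/-* SiglecF lo neutrophils. In TPM these were 2.58 and 5.29 in SiglecF hi and 4.66 and 0.0670 in SiglecF lo neutrophils. TRAIL transcripts were thus near zero in the *Cd300a-/-* SiglecF lo library alone, where the TPM was 69.5-fold (95% counting interval 18.8 to 580.2) lower than in WT, and they were highest in *Cd300a-/-* SiglecF hi neutrophils, with a log2 ratio to WT of 0.82 (0.57 to 1.06). *Tnfrsf10b*, for the only death receptor of mouse TRAIL, was low at 0.896 TPM (WT) and 1.80 TPM (*Cd300a-/-*) in SiglecF hi cells and 1.96 TPM (WT) and 1.78 TPM (*Cd300a-/-*) in SiglecF lo cells. The mouse decoy receptors of TRAIL differed widely in level. *Tnfrsf23* was at 71.6 TPM (WT) and 81.4 TPM (*Cd300a-/-*) in SiglecF hi cells, and at 49.9 TPM (WT) and 62.2 TPM (*Cd300a-/-*) in SiglecF lo cells. It was the most abundant of the 3 related receptor genes in each library. *Tnfrsf22* had 180 and 151 counts in WT and *Cd300a-/-* SiglecF hi neutrophils and 39 and 1 in SiglecF lo neutrophils, or 4.86, 4.56, 1.80 and 0.0418 TPM. It was 43.0-fold (95% counting interval 7.28 to 1742) lower for *Cd300a-/-* than WT SiglecF lo cells, again with the *Cd300a-/-* SiglecF lo library near zero. The folds of *Tnfsf10* and *Tnfrsf22* rest on 2 counts and 1 count there. They do not use the floor of 3 counts set for genes at 0, so the 2 kinds of fold cannot be compared. The related *Tnfrsf26* was at 19.0 TPM (WT) and 21.6 TPM (*Cd300a-/-*) in SiglecF hi cells, and at 15.8 TPM (WT) and 18.1 TPM (*Cd300a-/-*) in SiglecF lo cells. *Tnfrsf22*, *Tnfrsf23* and *Tnfrsf26* are neighbours on chromosome 7 with similar sequences, so a split of reads among them is uncertain.

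Of the 11472 genes, 137 (1.19%) had 0 counts in WT and at least 20 in *Cd300a-/-* SiglecF lo neutrophils, and 193 (1.68%) had the reverse. Between the SiglecF hi libraries these were 12 (0.105%) and 17 (0.148%). Counting intervals do not cover variation between libraries.

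Among the other receptors, *Tnfrsf21* encodes the death domain receptor DR6 and was at 28.4 TPM (WT) and 30.8 TPM (*Cd300a-/-*) in SiglecF hi cells, and at 18.0 TPM (WT) and 28.3 TPM (*Cd300a-/-*) in SiglecF lo cells. WT SiglecF lo was the low library, and the log2 ratio of *Cd300a-/-* to WT was 0.63 (0.44 to 0.81) in SiglecF lo and 0.11 (-0.02 to 0.24) in SiglecF hi neutrophils. *Tnfrsf18*, which encodes the costimulatory receptor GITR, was at 12.6 TPM (WT) and 9.80 TPM (*Cd300a-/-*) in SiglecF hi cells, and at 9.11 TPM (WT) and 10.8 TPM (*Cd300a-/-*) in SiglecF lo cells, with no library standing apart. *Tnfrsf11a* encodes RANK, the receptor through which RANKL drives osteoclast formation, and was at 6.39 TPM (WT) and 5.59 TPM (*Cd300a-/-*) in SiglecF hi cells, and at 4.33 TPM (WT) and 3.19 TPM (*Cd300a-/-*) in SiglecF lo cells, lower in the SiglecF lo than in the SiglecF hi libraries in TPM, an order that centring turned in WT mice (-0.10). *Tnfrsf4*, for OX40, lay between 0.756 and 2.06 TPM, on at most 18 counts. *Tnfrsf8*, for CD30, lay between 0.731 and 1.84 TPM. Both were lowest in WT SiglecF lo and highest in *Cd300a-/-* SiglecF lo neutrophils.

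The 12 genes with a mean of 1 TPM or less were 5 ligands, 5 receptors, 1 Traf gene and 1 Tnfaip gene. *Tnfrsf19* had 0 counts in all 4 libraries. The highest TPM in any library was 2.16 for *Tnfrsf17*, 2.13 for *Tnfrsf11b*, which encodes the RANKL decoy osteoprotegerin, 1.67 for *Traf3ip1*, 1.27 for *Tnfsf4*, the OX40 ligand gene, 1.04 for *Tnfsf18*, the GITR ligand gene, and 1.02 for *Tnfsf11*, the RANKL gene. It was under 1 for *Tnfrsf13c* (0.517), *Tnfsf8* (0.389), *Tnfsf15* (0.212), *Tnfaip8l3* (0.155) and *Tnfrsf25* (0.134). Nearest the limit of 1 was *Tnfrsf9* above it, with a mean of 1.11 TPM, and *Traf3ip1* under it, with 0.952 TPM. In any library the ligand genes of OX40, GITR, CD30 and RANK had at most 12, 11, 13 and 18 counts, and the receptor genes in the same order at most 18, 139, 39 and 282.

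TRAF adaptors link the receptors to kinases and ubiquitin ligases. *Traf1* (ENSMUSG00000026875, chromosome 2 from 34831762 to 34851784), a TRAF2 partner that NF-κB induces, was at 39.4 TPM (WT) and 60.7 TPM (*Cd300a-/-*) in SiglecF hi cells, and at 23.8 TPM (WT) and 20.1 TPM (*Cd300a-/-*) in SiglecF lo cells. It was highest in *Cd300a-/-* SiglecF hi neutrophils, and the log2 ratio of *Cd300a-/-* to WT was 0.61 (0.52 to 0.71) in the SiglecF hi subset and -0.23 (-0.41 to -0.06) in SiglecF lo neutrophils, of opposite sign. *Traf2*, which recruits the ligases cIAP1 and cIAP2 to TNF receptors, was at 17.5 TPM (WT) and 17.3 TPM (*Cd300a-/-*) in SiglecF hi cells, and at 8.57 TPM (WT) and 8.58 TPM (*Cd300a-/-*) in SiglecF lo cells, with the genotypes level in each subset. Its ratio of SiglecF hi to SiglecF lo passed the threshold in TPM (0.95 in WT and 0.93 in *Cd300a-/-* mice), but not after centring (0.38 and 0.29) or with TMM-scaled CPM (0.47 and 0.41). *Traf3*, which restrains the noncanonical NF-κB kinase NIK, was at 15.5 TPM (WT) and 18.7 TPM (*Cd300a-/-*) in SiglecF hi cells, and at 9.21 TPM (WT) and 15.4 TPM (*Cd300a-/-*) in SiglecF lo cells. WT SiglecF lo was its low library, and the log2 ratio of *Cd300a-/-* to WT in SiglecF lo neutrophils was 0.68 (0.51 to 0.86). *Traf6*, the adaptor of the IL-1 and Toll-like receptor pathways, was at 18.6 TPM (WT) and 23.1 TPM (*Cd300a-/-*) in SiglecF hi cells, and at 8.77 TPM (WT) and 12.7 TPM (*Cd300a-/-*) in SiglecF lo cells. It was higher in *Cd300a-/-* than in WT in both subsets, with log2 ratios of 0.29 (0.18 to 0.41) in the SiglecF hi subset and 0.49 (0.29 to 0.69) in SiglecF lo neutrophils, under the threshold, though the latter passed it after centring (0.51) and with TMM-scaled CPM (0.55). *Traf7* was at 35.5 TPM (WT) and 40.8 TPM (*Cd300a-/-*) in SiglecF hi cells, and at 32.0 TPM (WT) and 31.1 TPM (*Cd300a-/-*) in SiglecF lo cells, a narrow range. *Traf4* was at 12.7 TPM (WT) and 13.0 TPM (*Cd300a-/-*) in SiglecF hi cells, and at 7.59 TPM (WT) and 5.35 TPM (*Cd300a-/-*) in SiglecF lo cells. In WT its subset ratio was 0.67 in TPM, 0.10 after centring and 0.18 with TMM-scaled CPM, and in *Cd300a-/-* mice 1.14, 0.50 and 0.62.

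*Traf5*, a close relative of *Traf2* and *Traf3* in sequence, had 112 and 115 counts in the WT and *Cd300a-/-* SiglecF hi libraries and 110 and 40 in the SiglecF lo libraries, or 5.76, 6.61, 9.67 and 3.19 TPM. WT SiglecF lo was the highest and *Cd300a-/-* SiglecF lo the lowest library, with a log2 ratio of -1.35 (-1.77 to -0.93). *Traf3ip3*, which encodes a TRAF3-binding membrane protein of leukocytes, was at 8.84 TPM (WT) and 16.8 TPM (*Cd300a-/-*) in SiglecF hi cells, and at 10.1 TPM (WT) and 8.75 TPM (*Cd300a-/-*) in SiglecF lo cells. Only *Cd300a-/-* SiglecF hi neutrophils stood apart, with a log2 ratio to WT of 0.85 (0.63 to 1.07), against -0.19 (-0.49 to 0.11) in SiglecF lo neutrophils. This gene overlaps *A130010J15Rik* on the opposite strand, which had 81, 71, 10 and 5 counts in WT SiglecF hi, *Cd300a-/-* SiglecF hi, WT SiglecF lo and *Cd300a-/-* SiglecF lo neutrophils. *Traf3ip2* encodes Act1, the adaptor of IL-17 receptors, and had 41 and 36 counts in WT and *Cd300a-/-* SiglecF hi neutrophils, but 0 (WT) and 38 (*Cd300a-/-*) in the SiglecF lo libraries. It was at least 11.5-fold higher for *Cd300a-/-* than WT SiglecF lo cells against the floor of 3 counts, with the 38 counts taken without error. WT SiglecF lo was the only library without *Traf3ip2*.

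The Tnfaip genes were named as TNF-induced transcripts or, for the *Tnfaip8* relatives, for sequence likeness, and share no single function. *Tnfaip3* (ENSMUSG00000019850, chromosome 10 from 18876658 to 18891405) encodes A20, a ubiquitin-editing inhibitor of NF-κB signalling, and was at 528 TPM (WT) and 579 TPM (*Cd300a-/-*) in SiglecF hi cells, and at 183 TPM (WT) and 177 TPM (*Cd300a-/-*) in SiglecF lo cells. As for *Tnf*, both SiglecF hi libraries were high, with centred ratios of 0.96 in WT and 1.07 in *Cd300a-/-* mice, and the log2 ratio between genotypes was 0.13 (0.11 to 0.16) in the SiglecF hi subset and -0.04 (-0.10 to 0.01) in SiglecF lo neutrophils. *Tnfaip2*, which encodes M-Sec, a protein of membrane nanotubes, was at 1119 TPM (WT) and 1318 TPM (*Cd300a-/-*) in SiglecF hi cells, and at 773 TPM (WT) and 936 TPM (*Cd300a-/-*) in SiglecF lo cells. It was the most abundant of the 51 genes in both SiglecF lo libraries, and it was higher in *Cd300a-/-* than in WT in each subset, with log2 ratios of 0.24 (0.22 to 0.26) and 0.28 (0.24 to 0.31), under the threshold. Between subsets its direction changed with the scale, from 0.53 and 0.49 in TPM to -0.04 and -0.15 after centring.

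*Tnfaip8l2* encodes TIPE2, a negative regulator of innate and adaptive immunity, and was at 100.2 TPM (WT) and 97.1 TPM (*Cd300a-/-*) in SiglecF hi cells, and at 102 TPM (WT) and 138 TPM (*Cd300a-/-*) in SiglecF lo cells. *Cd300a-/-* SiglecF lo neutrophils had the highest level, with a log2 ratio to WT of 0.44 (0.29 to 0.59). Its relative *Tnfaip8* was at 87.2 TPM (WT) and 75.2 TPM (*Cd300a-/-*) in SiglecF hi cells, and at 82.1 TPM (WT) and 60.7 TPM (*Cd300a-/-*) in SiglecF lo cells. Here *Cd300a-/-* SiglecF lo was the lowest library, and the log2 ratios between genotypes were -0.21 (-0.28 to -0.14) in the SiglecF hi subset and -0.43 (-0.52 to -0.34) in SiglecF lo neutrophils. *Tnfaip6*, which encodes the hyaluronan-binding protein TSG-6, was at 37.8 TPM (WT) and 43.1 TPM (*Cd300a-/-*) in SiglecF hi cells, and at 40.1 TPM (WT) and 54.1 TPM (*Cd300a-/-*) in SiglecF lo cells, highest in *Cd300a-/-* SiglecF lo neutrophils. *Tnfaip1*, which encodes an adaptor of a cullin-3 ubiquitin ligase, was at 21.4 TPM (WT) and 20.7 TPM (*Cd300a-/-*) in SiglecF hi cells, and at 7.82 TPM (WT) and 7.51 TPM (*Cd300a-/-*) in SiglecF lo cells. It was higher in both SiglecF hi libraries, with centred ratios of 0.77 and 0.71, and level between genotypes. *Tnfaip8l1* rested on 41, 23, 5 and 28 counts in WT SiglecF hi, *Cd300a-/-* SiglecF hi, WT SiglecF lo and *Cd300a-/-* SiglecF lo neutrophils, with 0.409 TPM in WT SiglecF lo and 1.96, 1.23 and 2.08 TPM in the others.

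**Figure D1:**
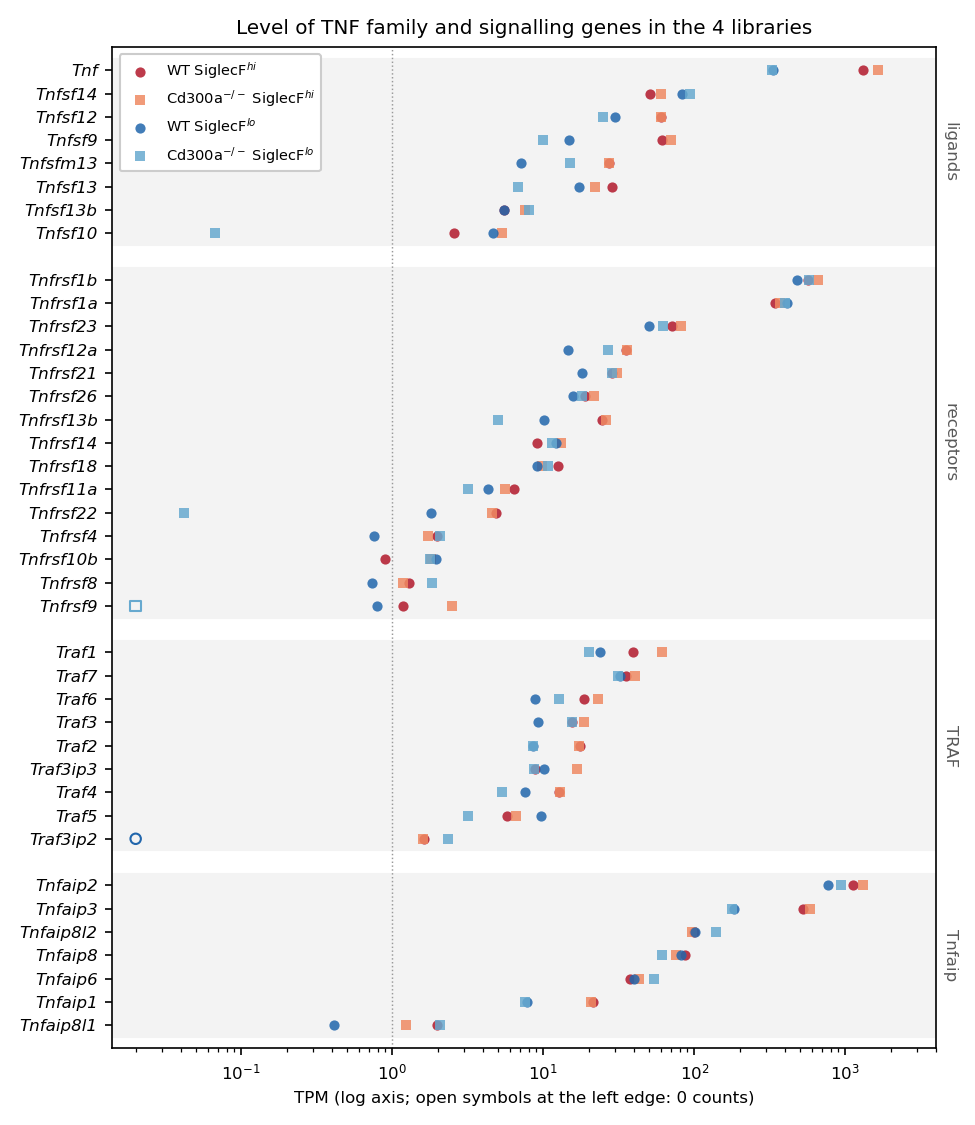
Level of the 39 genes with a mean over 1 TPM, grouped as ligands, receptors, Traf and Tnfaip genes, on a log axis of TPM. Each symbol is 1 library, open symbols at the left edge stand for 0 counts, and the dotted line marks 1 TPM. *Tnf* lies at 1309 and 1637 TPM in the SiglecF hi libraries and at 333 and 327 TPM in the SiglecF lo libraries, while *Tnfsf10* and *Tnfrsf22* fall far to the left in *Cd300a-/-* SiglecF lo neutrophils.

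The comparison of *Cd300a-/-* with WT mice asks how neutrophils of mice without CD300a differ within each subset. In SiglecF hi neutrophils 6 of the 39 genes (15.4%) were higher in *Cd300a-/-* mice, where 7.03% of all genes tested were, and 0 were lower, where 7.93% of all genes were. The 6 were *Traf3ip3*, *Tnfsf10*, *Tnfrsf9*, *Traf1*, *Tnfrsf10b* and *Tnfrsf14*, so the TRAIL gene and the gene of its death receptor were both among them. The log2 ratio was 0.68 (0.28 to 1.08) for *Tnfrsf9* and 0.56 (0.18 to 0.94) for *Tnfrsf10b*. *Tnfrsf9* passed a mean of 1 TPM only through *Cd300a-/-* SiglecF hi neutrophils (2.48 TPM), so its count as higher there is tied to the filter. After centring *Tnfrsf14* was under the threshold, at 0.47, as with TMM-scaled CPM (0.46). The median log2 ratio of the 39 genes was 0.13, against 0.03 for all genes, and 25 of the 39 (64.1%) were above 0, where 53.6% of all genes were. By role the median was 0.21 for the 8 ligands, 0.11 for the 15 receptors, 0.19 for the 9 Traf genes and -0.05 for the 7 Tnfaip genes.

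In SiglecF lo neutrophils 8 of the 39 genes (20.5%) were higher in *Cd300a-/-* mice, where 20.7% of all genes were, and 7 (17.9%) were lower, where 24.5% of all genes were. The share that was higher was thus that of genes at large. The 8 were *Traf3ip2*, *Tnfaip8l1*, *Tnfsfm13*, *Tnfrsf12a*, *Tnfrsf4*, *Tnfrsf8*, *Traf3* and *Tnfrsf21*. The log2 ratio was 1.13 (0.61 to 1.64) for *Tnfaip8l1* and 0.71 (0.26 to 1.16) for *Tnfrsf8*. The interval of *Tnfrsf4* included 0, at 0.80 (-0.02 to 1.62). The 7 that were lower were *Tnfsf10*, *Tnfrsf22*, *Traf5*, *Tnfsf13*, *Tnfrsf13b*, *Tnfrsf9* and *Tnfsf9*, among them 3 ligands. With TMM-scaled CPM *Tnfsf9* was under the threshold, at -0.49. The median log2 ratio of the 39 genes was -0.03, against -0.02 for all genes. By role it was -0.14 for the ligands, 0.18 for the receptors, -0.04 for the Traf genes and 0.28 for the Tnfaip genes. In each of the 4 comparisons the median of the 39 genes was the same to 2 decimals with genes at 0 placed at their bound. No direction between genotypes among the 39 genes changed with centring or with TMM-scaled CPM. Opposite signs in the 2 subsets, with both counting intervals excluding 0, were found in 4 of the 39 genes (10.3%) and in 16.0% of all genes. In all 4 the ratio was above 0 in SiglecF hi and under 0 in SiglecF lo neutrophils, which held for 9.54% of all genes. Among the 4, *Tnfrsf9* passed a mean of 1 TPM only through *Cd300a-/-* SiglecF hi neutrophils, so its signs are tied to the filter.

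**Figure D2:**
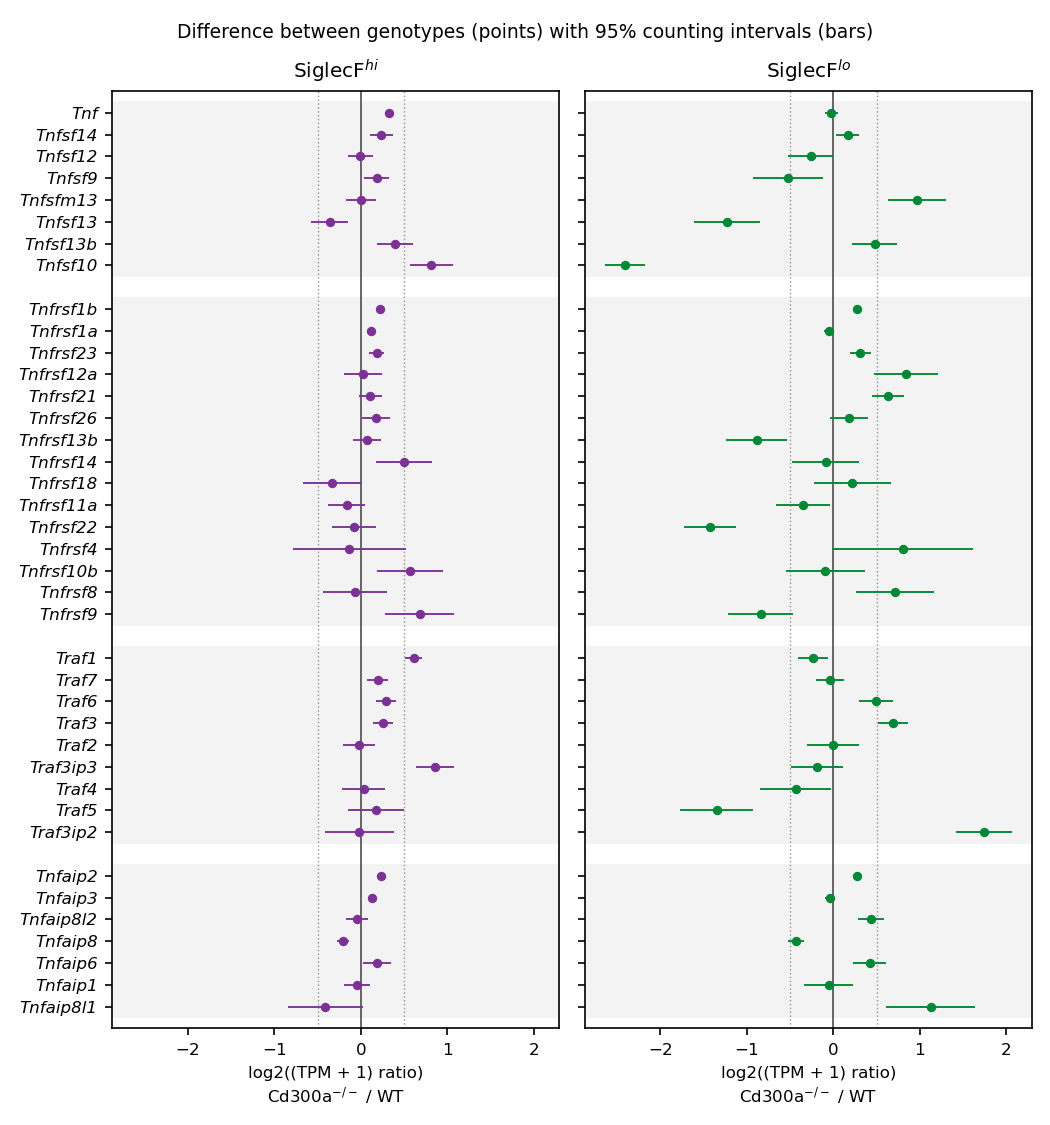
Difference between genotypes for the 39 genes, as log2((TPM + 1) ratio) of *Cd300a-/-* to WT in SiglecF hi (left) and SiglecF lo (right) neutrophils. Points are ratios of 1 library each and bars 95% counting intervals, and dotted lines mark -0.5 and 0.5. In the error, counts under 3 but over 0 were entered as 3. A library at 0 counts added none, so bars of genes at 0 are too short. The 6 genes past 0.5 in SiglecF hi neutrophils lie to the right, while SiglecF lo neutrophils show 8 genes to the right and 7 to the left, from -2.41 for *Tnfsf10* to 1.74 for *Traf3ip2*.

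The comparison of the subsets asks how SiglecF hi and SiglecF lo neutrophils of 1 genotype differ. It uses the same 4 libraries as the genotype comparisons, so its ratios are not independent of them. In WT mice 21 of the 39 genes (53.8%) were higher in SiglecF hi neutrophils, where 54.4% of all genes were, and 4 (10.3%) were lower, where 9.38% were. In *Cd300a-/-* mice 18 (46.2%) were higher, where 57.9% of all genes were, and 2 (5.13%) were lower, where 8.48% were. Their median was 0.53 in WT and 0.41 in *Cd300a-/-* mice, against 0.57 and 0.64 for all genes. After centring, 9 were higher and 10 lower in WT, and 12 and 12 in *Cd300a-/-* mice. All genes had 23.6% higher and 23.9% lower in WT, and 23.6% and 24.7% in *Cd300a-/-* mice. With TMM-scaled CPM, 11 were higher and 9 lower in WT, and 12 and 9 in *Cd300a-/-* mice, against 28.7% and 21.2% of all genes in WT and 31.0% and 20.5% in *Cd300a-/-* mice. As shares of the 39 genes the TMM-scaled counts in WT were 28.2% and 23.1%.

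After centring, 5 of the 39 genes (12.8%) were past 0.5 toward SiglecF hi neutrophils in both genotypes, where 10.2% of all genes were, namely *Tnf*, *Tnfsf9*, *Tnfaip3*, *Tnfrsf13b* and *Tnfaip1*. Toward SiglecF lo neutrophils 6 genes (15.4%) were past -0.5 in both genotypes, where 13.4% of all genes were, namely *Tnfsf14*, *Tnfrsf1a*, *Tnfaip6*, *Tnfaip8l2*, *Tnfsf13b* and *Tnfrsf10b*. With TMM-scaled CPM *Tnfsf13b* in WT (-0.49) and *Tnfrsf10b* in *Cd300a-/-* mice (-0.41) were not past -0.5. These counts were drawn up after the values were seen. *Tnfaip6* had centred ratios of -0.65 in WT and -0.96 in *Cd300a-/-* mice, and *Tnfaip8l2* of -0.59 in WT and -1.14 in *Cd300a-/-* mice. The side on which a gene fell changed between TPM and the centred or TMM-scaled values for 11 of the 39 genes in WT and for 11 in *Cd300a-/-* mice. In WT these included *Tnfrsf23* and *Tnfaip2*, which passed 0.5 in TPM (0.51 and 0.53) and were at -0.06 and -0.04 after centring. Of the 39 genes, 9 had their highest TPM among the 4 libraries in the WT SiglecF hi library and 19 in the *Cd300a-/-* SiglecF hi library. The highest library was WT SiglecF lo for 3 and *Cd300a-/-* SiglecF lo for 8. In this order these are 23.1%, 48.7%, 7.69% and 20.5%, against 36.1%, 40.3%, 11.3% and 12.4% of all genes tested.

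**Figure D3:**
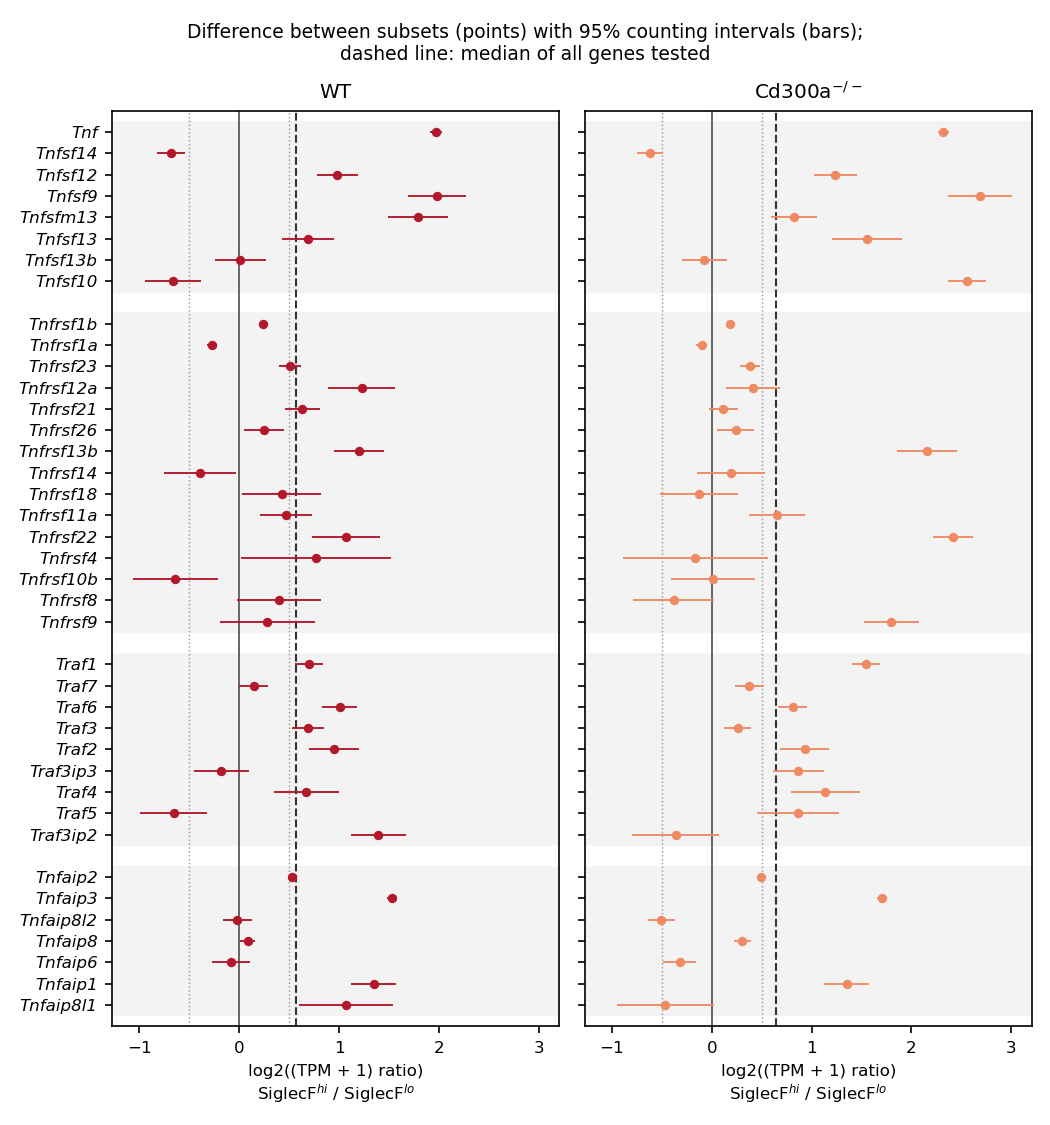
Ratio of SiglecF hi to SiglecF lo neutrophils for the 39 genes in WT and *Cd300a-/-* mice, as log2((TPM + 1) ratio) with 95% counting intervals. Points are ratios of 1 library each, and the dashed lines mark the median of all 11472 genes, at 0.57 in WT and 0.64 in *Cd300a-/-* mice. *Tnf* (1.97 and 2.32) and *Tnfsf9* (1.98 and 2.69) lie to the right of both lines and *Tnfsf14* (-0.69 and -0.62) to the left.

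The proteins that carry the signal inward were examined as a list of 31 genes, all with a mean over 1 TPM. The list holds the adaptors and kinases under the receptors, the ubiquitin ligases and deubiquitinases that act on them, and the NF-κB subunits and inhibitors. *Nfkbia*, which encodes the NF-κB inhibitor IκBα and is itself induced by NF-κB, was the most abundant of the 31, at 3209.8 TPM (WT) and 3558 TPM (*Cd300a-/-*) in SiglecF hi cells, and at 1965 TPM (WT) and 1361 TPM (*Cd300a-/-*) in SiglecF lo cells. It was highest in the SiglecF hi libraries and lowest in *Cd300a-/-* SiglecF lo neutrophils, where its log2 ratio to WT was -0.53 (-0.56 to -0.50). Between genotypes, 1 was higher and 0 were lower in *Cd300a-/-* SiglecF hi neutrophils, with a median of 0.16, and 5 were higher and 5 lower in *Cd300a-/-* SiglecF lo neutrophils, with a median of 0.24. The shares of all genes above and below the threshold were 7.03% and 7.93% in SiglecF hi neutrophils, with a median of 0.03, and 20.7% and 24.5% in SiglecF lo neutrophils, with a median of -0.02. In SiglecF hi neutrophils the ratios ran from -0.50 (-0.70 to -0.30) for *Tradd*, the TNFR1 adaptor gene, to 0.51 (0.36 to 0.66) for *Map3k14*, which encodes NIK. After centring *Map3k14* was under the threshold and *Tradd* past it at -0.52, so 0 were higher and 1 lower. In SiglecF lo neutrophils they ran from -1.20 (-1.60 to -0.80) for *Fadd*, which links death receptors to caspase-8, to 0.83 (0.56 to 1.10) for *Tab3*, a partner of the kinase TAK1. *Fadd* had 5.28 TPM (WT) and 6.03 TPM (*Cd300a-/-*) in SiglecF hi cells and 2.34 TPM (WT) and 0.452 TPM (*Cd300a-/-*) in SiglecF lo cells. Its low library was *Cd300a-/-* SiglecF lo. Between subsets 16 of 31 were higher in WT and 15 in *Cd300a-/-* SiglecF hi neutrophils and 0 lower in either, with medians of 0.54 and 0.49. These are 51.6% and 48.4%, against 54.4% and 57.9% of all genes. After centring 1 was higher and 1 lower in WT, and 4 and 3 in *Cd300a-/-* mice, where 23.6% and 23.9% of all genes were in WT and 23.6% and 24.7% in *Cd300a-/-* mice.

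TNF output also depends on ADAM17 and its iRhom partners, which release the membrane ligand, and on RNA-binding proteins that control TNF mRNA. All 9 genes on this list were over 1 TPM. *Zfp36*, which encodes the mRNA-destabilizing protein tristetraprolin, was the most abundant, at 980.4 TPM (WT) and 1119.8 TPM (*Cd300a-/-*) in SiglecF hi cells, and at 662 TPM (WT) and 671 TPM (*Cd300a-/-*) in SiglecF lo cells. Both SiglecF hi libraries were higher than both SiglecF lo libraries before centring. Between genotypes 0 of the 9 passed 0.5 in SiglecF hi neutrophils, with a median of 0.12 and a range from -0.39 for *Rhbdf1* to 0.27 for *Zc3h12a*, which encodes the ribonuclease regnase-1. In SiglecF lo neutrophils *Rhbdf2*, which encodes iRhom2, was higher in *Cd300a-/-* mice at 1.11 (0.97 to 1.24), and *Rhbdf1*, for iRhom1, was lower at -0.61 (-1.03 to -0.19), with a median of 0.06. Higher and lower were 7.03% and 7.93% of all genes in SiglecF hi and 20.7% and 24.5% in SiglecF lo neutrophils, with medians of 0.03 and -0.02. *Rhbdf2* had 37.5 TPM (WT) and 34.8 TPM (*Cd300a-/-*) in SiglecF hi cells and 30.5 TPM (WT) and 66.8 TPM (*Cd300a-/-*) in SiglecF lo cells. *Cd300a-/-* SiglecF lo was its highest library. Between subsets 5 of 9 were higher and 0 lower in SiglecF hi cells of WT mice, with a median of 0.55, and 6 higher and 1 lower in *Cd300a-/-* mice, with a median of 0.55. The shares that were higher were 55.6% and 66.7%, against 54.4% and 57.9% of all genes. After centring, 0 and 0 passed the threshold in WT and 1 and 1 in *Cd300a-/-* mice, as did 23.6% and 23.9% of all genes in WT and 23.6% and 24.7% in *Cd300a-/-* mice.

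Of 14 genes of the same superfamily with other names, 6 had a mean over 1 TPM, namely *Ltb*, *Fas*, *Ltbr*, *Relt*, *Cd40* and *Cd27*. *Ltb*, the lymphotoxin-β gene, was the most abundant, at 189 TPM (WT) and 193 TPM (*Cd300a-/-*) in SiglecF hi cells, and at 229 TPM (WT) and 175 TPM (*Cd300a-/-*) in SiglecF lo cells. It was the only ligand gene among the 6. In SiglecF hi neutrophils 0 of the 6 passed 0.5 between genotypes, where 7.03% of all genes were higher and 7.93% lower, from 0.03 for *Ltb* to 0.49 for *Cd27*, with a median of 0.15. In SiglecF lo neutrophils 2 were higher in *Cd300a-/-* mice and 1 was lower, with a median of -0.16, where 20.7% and 24.5% of all genes were. *Cd40*, which encodes the receptor of CD40 ligand on antigen-presenting cells, was at 7.10 TPM (WT) and 9.60 TPM (*Cd300a-/-*) in SiglecF hi cells, and at 1.72 TPM (WT) and 8.67 TPM (*Cd300a-/-*) in SiglecF lo cells. Its low library was WT SiglecF lo, and the log2 ratio there was 1.83 (1.44 to 2.22). *Ltbr* followed at 0.60 (0.44 to 0.77). *Cd27*, a costimulatory receptor gene of lymphocytes, had 35 counts in WT SiglecF lo neutrophils, 5 in *Cd300a-/-* SiglecF hi neutrophils and 0 in the other 2 libraries, so its mean passed 1 TPM through WT SiglecF lo neutrophils alone. *Fasl*, for Fas ligand, was under that mean and had the reverse order, with 0 counts in WT and 27 in *Cd300a-/-* SiglecF lo neutrophils. *Cd27* was the 1 gene of the 6 counted as lower in *Cd300a-/-* SiglecF lo neutrophils, at -2.42, so that call is tied to the filter. The same holds for its place among the genes lower in SiglecF hi than SiglecF lo cells of WT mice. Between subsets 2 of 6 were higher and 2 lower in SiglecF hi cells of WT mice, with a median of 0.08, and 1 and 0 in *Cd300a-/-* mice, with a median of 0.14, or 0.10 with *Cd27* at its bound. Of all genes 54.4% were higher and 9.38% lower in WT, and 57.9% and 8.48% in *Cd300a-/-* mice. After centring, 1 of the 6 was higher and 3 were lower in WT, with a median of -0.49, and 0 and 3 in *Cd300a-/-* mice, with a median of -0.50, so the sign of both medians changed. On that scale 23.6% and 23.9% of all genes in WT and 23.6% and 24.7% in *Cd300a-/-* mice were higher and lower.

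*Fas*, which encodes a death domain receptor, was at 71.6 TPM (WT) and 81.8 TPM (*Cd300a-/-*) in SiglecF hi cells, and at 114 TPM (WT) and 81.6 TPM (*Cd300a-/-*) in SiglecF lo cells, highest in WT SiglecF lo neutrophils. A separate list held 4 receptors with a death domain and a Tnfrsf name, *Tnfrsf1a*, *Tnfrsf10b*, *Tnfrsf21* and *Tnfrsf25*. The first 3 had a mean over 1 TPM. In SiglecF hi neutrophils *Tnfrsf10b* was higher in *Cd300a-/-* mice and 0 were lower, with a median of 0.12. In SiglecF lo neutrophils *Tnfrsf21* was higher and 0 were lower, with a median of -0.05. The shares higher and lower were 7.03% and 7.93% of all genes in SiglecF hi and 20.7% and 24.5% in SiglecF lo neutrophils. Between subsets 1 was higher and 1 lower in WT, with a median of -0.27, and 0 passed the threshold in *Cd300a-/-* mice, with a median of 0.01. Of all genes 54.4% were higher and 9.38% lower in WT, and 57.9% and 8.48% in *Cd300a-/-* mice. After centring 0 were higher in SiglecF hi neutrophils, while 2 of 3 were lower in WT and 3 of 3 in *Cd300a-/-* mice, against higher and lower shares of 23.6% and 23.9% of all genes in WT and 23.6% and 24.7% in *Cd300a-/-* mice.

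The sorted cells were checked against cell type markers, since several TNF family genes are made by many cell types. The counts of each list stand against those of all genes, of which 7.03% were higher and 7.93% lower in SiglecF hi and 20.7% and 24.5% in SiglecF lo neutrophils of *Cd300a-/-* mice. Toward SiglecF hi neutrophils 54.4% of all genes were higher and 9.38% lower in WT, and 57.9% and 8.48% in *Cd300a-/-* mice, with medians of 0.57 and 0.64. After centring these shares were 23.6% and 23.9% in WT and 23.6% and 24.7% in *Cd300a-/-* mice. The 10 neutrophil markers, led by *S100a9*, summed to 28769 TPM (WT) and 33875 TPM (*Cd300a-/-*) in SiglecF hi cells and 155327 TPM (WT) and 203924 TPM (*Cd300a-/-*) in SiglecF lo cells. *Siglecf* was at 354 TPM (WT) and 405 TPM (*Cd300a-/-*) in SiglecF hi cells, and at 11.3 TPM (WT) and 15.3 TPM (*Cd300a-/-*) in SiglecF lo cells, and *Ly6g* was at 11.1 TPM (WT) and 41.9 TPM (*Cd300a-/-*) in SiglecF hi cells, and at 330.4 TPM (WT) and 889 TPM (*Cd300a-/-*) in SiglecF lo cells. *Siglecf* thus followed the sort, while *Ly6g* was far lower in the SiglecF hi libraries. Between genotypes 2 of 10 were higher and 0 lower in SiglecF hi neutrophils of *Cd300a-/-* mice (median 0.20), and 4 and 0 in SiglecF lo neutrophils (median 0.42). Ratios between genotypes ran from -0.01 for *Cxcr2* to 1.82 for *Ly6g* in SiglecF hi neutrophils and from 0.12 for *Cxcr2* to 1.43 for *Ly6g* in SiglecF lo neutrophils. Between subsets, toward SiglecF hi neutrophils 1 was higher and 5 lower in WT (median -0.83), and 1 and 7 in *Cd300a-/-* mice (median -1.01). After centring, 1 and 8 passed the threshold in WT and 1 and 9 in *Cd300a-/-* mice. The 10 macrophage markers, led by *Lyz2*, which neutrophils also express, summed to 22403 TPM (WT) and 18556 TPM (*Cd300a-/-*) in SiglecF hi cells and 10605 TPM (WT) and 9204 TPM (*Cd300a-/-*) in SiglecF lo cells. Their sums were higher in both SiglecF hi libraries. Between genotypes 0 of 10 were higher and 0 lower in SiglecF hi neutrophils of *Cd300a-/-* mice (median -0.21), and 1 and 1 in SiglecF lo neutrophils (median -0.15). The genotype ratios ran from -0.46 for *Cd68* to 0.07 for *Csf1r* in SiglecF hi neutrophils and from -1.22 for *Fcgr1* to 0.66 for *Mrc1* in SiglecF lo neutrophils. In the comparison of subsets, toward SiglecF hi neutrophils 8 were higher and 0 lower in WT (median 1.30), and 10 and 0 in *Cd300a-/-* mice (median 1.07). After centring, 7 and 1 passed the threshold in WT and 4 and 0 in *Cd300a-/-* mice.

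Fibroblast markers, 6 genes led by *Dcn*, summed to 1854 TPM (WT) and 1299.8 TPM (*Cd300a-/-*) in SiglecF hi cells and 869 TPM (WT) and 812 TPM (*Cd300a-/-*) in SiglecF lo cells, highest in WT SiglecF hi neutrophils. Between genotypes 0 of 6 were higher and 3 lower in SiglecF hi neutrophils of *Cd300a-/-* mice (median -0.53), and 1 and 0 in SiglecF lo neutrophils (median 0.02). Single ratios of *Cd300a-/-* to WT ran from -0.69 for *Col1a2* to 0.01 for *Lum* in SiglecF hi neutrophils and from -0.28 for *Dcn* to 0.55 for *Pdgfra* in SiglecF lo neutrophils. As to the subsets, toward SiglecF hi neutrophils 6 were higher and 0 lower in WT (median 1.11), and 4 and 0 in *Cd300a-/-* mice (median 0.67). After centring, 4 and 0 passed the threshold in WT and 0 and 0 in *Cd300a-/-* mice. The 6 endothelial markers, led by *Pecam1*, which leukocytes also carry, summed to 76.6 TPM (WT) and 99.7 TPM (*Cd300a-/-*) in SiglecF hi cells and 134 TPM (WT) and 48.3 TPM (*Cd300a-/-*) in SiglecF lo cells. All 6 were lower for *Cd300a-/-* than WT SiglecF lo cells, with a median of -1.26. In SiglecF hi neutrophils 1 was higher and 0 were lower, with a median of 0.35. Ratios between genotypes ran from 0.07 for *Tek* to 0.59 for *Tie1* in SiglecF hi neutrophils and from -1.82 for *Pecam1* to -0.65 for *Kdr* in SiglecF lo neutrophils. Between subsets, toward SiglecF hi neutrophils 0 were higher and 3 lower in WT (median -0.49), and 6 and 0 in *Cd300a-/-* mice (median 0.98). After centring, 0 and 5 passed the threshold in WT and 2 and 0 in *Cd300a-/-* mice. Of the 6 cardiomyocyte markers 5 had a mean over 1 TPM. The 6 summed to 41.6 TPM (WT) and 62.9 TPM (*Cd300a-/-*) in SiglecF hi cells and 43.6 TPM (WT) and 25.3 TPM (*Cd300a-/-*) in SiglecF lo cells. *Myl2* was the highest of them in the SiglecF lo libraries and *Tnnt2* in the SiglecF hi libraries. Between genotypes 3 of 5 were higher and 0 lower in SiglecF hi neutrophils of *Cd300a-/-* mice (median 0.71), and 0 and 3 in SiglecF lo neutrophils (median -0.73). The genotype ratios ran from 0.09 for *Actc1* to 0.93 for *Tnni3* in SiglecF hi neutrophils and from -2.31 for *Tnni3* to -0.07 for *Myl2* in SiglecF lo neutrophils. In the comparison of subsets, toward SiglecF hi neutrophils 2 were higher and 0 lower in WT (median -0.22), and 4 and 0 in *Cd300a-/-* mice (median 1.60). After centring, 0 and 3 passed the threshold in WT and 3 and 0 in *Cd300a-/-* mice. *Ttn* had a mean under 1 TPM and was not counted. It had 90 (WT) and 226 (*Cd300a-/-*) counts for SiglecF hi cells, and 1538 (WT) and 169 (*Cd300a-/-*) for SiglecF lo cells. Its log2 ratio toward SiglecF hi cells was -1.73 in WT and -0.01 in *Cd300a-/-* mice. The ratio of *Cd300a-/-* to WT was 0.20 for SiglecF hi cells and -1.52 for SiglecF lo cells.

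Eosinophils also carry Siglec-F. Of 7 eosinophil markers 2 had a mean over 1 TPM. The 7 summed to 117 TPM (WT) and 119 TPM (*Cd300a-/-*) in SiglecF hi cells and 173 TPM (WT) and 87.9 TPM (*Cd300a-/-*) in SiglecF lo cells, nearly all from *Ear2*. The granule protein gene *Epx* had 0 counts in all 4 libraries, and *Prg2* was at 0.272 TPM in WT SiglecF hi neutrophils and 0 in the other 3. Between genotypes 0 of 2 were higher and 0 lower in SiglecF hi neutrophils of *Cd300a-/-* mice (median 0.09), and 0 and 1 in SiglecF lo neutrophils (median -0.41). Single ratios of *Cd300a-/-* to WT ran from 0.04 for *Ear2* to 0.13 for *Ccr3* in SiglecF hi neutrophils and from -0.98 for *Ear2* to 0.16 for *Ccr3* in SiglecF lo neutrophils. As to the subsets, toward SiglecF hi neutrophils 1 was higher and 1 lower in WT (median 0.31), and 1 and 0 in *Cd300a-/-* mice (median 0.81). After centring, 1 and 1 passed the threshold in WT and 1 and 0 in *Cd300a-/-* mice. Of 8 T and NK cell markers 3 had a mean over 1 TPM. The 8 summed to 5.18 TPM (WT) and 7.29 TPM (*Cd300a-/-*) in SiglecF hi cells and 7.76 TPM (WT) and 11.7 TPM (*Cd300a-/-*) in SiglecF lo cells. The highest of them was *Cd4* in WT SiglecF hi, *Cd3d* in *Cd300a-/-* SiglecF hi and *Cd3g* in both SiglecF lo libraries, while *Trac* was at 0 in all 4 libraries. Between genotypes 1 of 3 was higher and 1 lower in SiglecF hi neutrophils of *Cd300a-/-* mice (median 0.00), and 3 and 0 in SiglecF lo neutrophils (median 0.84), the latter 0.73 with genes at 0 placed at their bound. Ratios between genotypes ran from -0.53 for *Cd3g* to 1.17 for *Cd3d* in SiglecF hi neutrophils and from 0.73 for *Cd3g* to 0.98 for *Cd3d* in SiglecF lo neutrophils. Markers under the mean of 1 TPM, which were not counted, went both ways in SiglecF lo neutrophils. *Cd3e*, *Ncr1* and *Klrb1c* had 7, 9 and 16 counts in WT and 0 in *Cd300a-/-* mice, while *Cd8a* had 0 and 19. Between subsets, toward SiglecF hi neutrophils 1 was higher and 1 lower in WT (median -0.19), and 1 and 1 in *Cd300a-/-* mice (median -0.01). After centring, 1 and 2 passed the threshold in WT and 0 and 2 in *Cd300a-/-* mice. The part of any other cell type in the differences of the TNF family genes was not tested.

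Many TNF family genes are known NF-κB targets, so their promoters were searched for the NF-κB consensus on both strands, in windows from 250 bases before to 50 bases after the gene start (RefSeq, GRCm38.p6). Of the 39 genes, 32 had a promoter in the table, and 6 of these (18.8%) held a match, namely *Tnfaip2*, *Tnfaip3*, *Tnfaip8l1*, *Tnfrsf8*, *Tnfrsf9* and *Traf3*. Over all genes with a RefSeq window, 2581 of 27025 (9.55%) held a match, and among all windows 2779 of 32851 (8.46%). The 250 bases before the start are printed for *Tnf* and *Tnfaip3*, which had the highest ratios of SiglecF hi to SiglecF lo neutrophils among those of the 39 genes with a mean over 100 TPM. The window of *Tnf* lies at chr17:35202008-35202257 and that of *Tnfaip3* at chr10:19015411-19015660, both on the minus strand and written 5′ to 3′ in the direction of the gene. Capitals mark matches to the consensus, of which *Tnfaip3* has 2, beginning 125 and 12 bases before its start. RefSeq gives *Tnfaip3* another start, whose 250 bases at chr10:19011964-19012213 hold 0 matches and are not printed. The window of *Tnf* has none, which says only that these letters are not in it.
Tnf: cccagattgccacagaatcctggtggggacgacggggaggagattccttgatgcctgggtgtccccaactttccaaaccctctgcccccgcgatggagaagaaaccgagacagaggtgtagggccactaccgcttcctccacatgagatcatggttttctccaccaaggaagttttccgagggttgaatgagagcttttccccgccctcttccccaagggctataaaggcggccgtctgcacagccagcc
Tnfaip3: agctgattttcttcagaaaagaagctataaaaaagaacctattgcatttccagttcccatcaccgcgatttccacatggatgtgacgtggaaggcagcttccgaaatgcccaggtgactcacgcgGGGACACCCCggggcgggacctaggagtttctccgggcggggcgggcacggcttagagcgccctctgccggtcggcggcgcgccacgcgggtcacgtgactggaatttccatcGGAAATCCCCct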

How the data were processed

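RNA of the 4 libraries was extracted with ISOGEN, poly(A)-selected and made into libraries with an NEBNext Ultra II kit, 1 library per group. The authors counted reads per gene in CLC Genomics Workbench (20.0) on GRCm39, and the deposited files hold whole-number counts and TPM for 25655 genes. Library totals ran from 9631901 to 19278243 counts. Ratios were log2((TPM + 1) ratios) over the 11472 genes with a mean over 1 TPM, called past 0.5, with 95% counting intervals. In these, counts under 3 but over 0 entered as 3, and a library at 0 counts added no error. Intervals of genes at 0 counts in a library are therefore too narrow. With 1 library per group, no test across samples was made. Alternatives were a pseudocount of 0.1 TPM, TMM-scaled CPM, centring on the median of all genes, a mean over 10 TPM, no filter and a threshold of 1. Leaving out the overlapping *Tnfsf12*, *Tnfsf13* and *Tnfsfm13* was added after seeing the data. Genes with a mean over 10 TPM are given in every library, those from 1 to 10 TPM by name where they passed 0.5 between genotypes or complete a ligand and receptor pair. From the other lists the most abundant gene and the largest ratios between genotypes are named. The genes and lists were chosen with earlier results of these data known. The calls of the genotype comparison in SiglecF lo neutrophils were tested on simulated data. There 97.5% of 200 changed genes and 1.35% of unchanged genes passed the threshold. Every planted change in TPM had a log2 size of at least 1, well past the threshold of 0.5. The 97.5% thus does not cover changes between 0.5 and 1. Spread between libraries is unknown, so these shares do not show whether a call would recur in other libraries. Python 3.11.15, numpy 2.4.6, pandas 2.3.3, scipy 1.17.1, matplotlib 3.10.9, R 4.3.3 and edgeR 4.0.16 were used.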

Additional observations from a re-analysis of the deposited data

Results flagged for a closer look

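In 4 genes the log2 ratio of *Cd300a-/-* to WT had opposite signs in SiglecF hi and SiglecF lo neutrophils, with counting intervals that excluded 0 in both. These were 10.3% of the 39 genes, where 16.0% of all genes did the same. The ratio in SiglecF hi minus that in SiglecF lo neutrophils was 0.85 for *Traf1* and 0.71 for *Tnfsf9*. It was 3.22 for *Tnfsf10*, which had 2 counts in *Cd300a-/-* SiglecF lo neutrophils, and 1.52 for *Tnfrsf9*, which had 0 counts there. The SiglecF lo interval of *Tnfrsf9* thus holds the error of its WT counts alone. *Tnfrsf9* passed a mean of 1 TPM only through *Cd300a-/-* SiglecF hi neutrophils (2.48 TPM), so its ratio above 0 in that subset is tied to the filter. In each of the 4 genes the SiglecF hi ratio was above 0 and the SiglecF lo ratio under 0. With 1 library per group the difference was not tested.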

How the results depend on the processing

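Values are for the 39 genes unless another number is given, with shares in parentheses, and the cause of a change was not tested except where fewer or more genes entered. With a pseudocount of 0.1 TPM, 1 gene (2.56%, all genes 10.0%) was lower in *Cd300a-/-* SiglecF hi neutrophils, and between subsets the WT median was 0.66 (all genes 0.63) and 5 genes (12.8%, all genes 9.54%) were lower in *Cd300a-/-* mice. With TMM-scaled CPM, 11 genes (28.2%, all genes 28.7%) were higher and 9 (23.1%, all genes 21.2%) lower in WT SiglecF hi against SiglecF lo neutrophils, with a median of 0.12 (all genes 0.089), and 9 (23.1%, all genes 20.5%) were lower in *Cd300a-/-* mice, with a median of -0.15 (all genes 0.13). Centring gave 9 higher (23.1%, all genes 23.6%) and 10 lower (25.6%, all genes 23.9%) in WT, with a median of -0.038, and 12 (30.8%, all genes 24.7%) lower in *Cd300a-/-* mice, with a median of -0.23. In WT *Tnfrsf23* turned from 0.51 to -0.021 with TMM-scaled CPM and -0.060 with centring, and *Tnfaip2* from 0.53 to -0.0072 and -0.038.

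With a mean over 10 TPM, 27 genes entered. Of these 3 (11.1%, all genes 3.31%) were higher in *Cd300a-/-* SiglecF hi neutrophils (median 0.18), 4 (14.8%, all genes 16.4%) higher and 3 (11.1%, all genes 19.9%) lower in *Cd300a-/-* SiglecF lo neutrophils, and 1 (3.70%, all genes 7.47%) lower in WT SiglecF hi against SiglecF lo neutrophils (median 0.63, all genes 0.53). With no filter 50 genes entered. Then 1 (2.00%, all genes 8.66%) was lower in *Cd300a-/-* SiglecF hi neutrophils (median 0.053), 13 (26.0%, all genes 17.8%) were higher in *Cd300a-/-* SiglecF lo neutrophils (median 0.084), the WT median between subsets was 0.45 (all genes 0.38), and 5 (10.0%, all genes 8.74%) were lower in *Cd300a-/-* SiglecF hi against SiglecF lo neutrophils. At a threshold of 1, 0 genes (0%, all genes 1.40%) were higher in *Cd300a-/-* SiglecF hi neutrophils, 2 (5.13%, all genes 6.88%) were higher and 4 (10.3%, all genes 10.4%) lower in *Cd300a-/-* SiglecF lo neutrophils, 11 (28.2%, all genes 26.2%) were higher and 0 (0%, all genes 4.29%) lower in WT SiglecF hi against SiglecF lo neutrophils, and 0 (0%, all genes 3.91%) were lower in that comparison in *Cd300a-/-* mice. Without the 3 overlapping genes, a choice made after seeing the data, the median of the other 36 was 0.17 between genotypes in SiglecF hi neutrophils and 0.49 between subsets in WT. The other counts stayed within 1.5 times the main count and the other medians within the counting interval of the middle gene. Of 108 single ratios of the 27 genes over 10 TPM, 52 moved outside their counting interval with TMM-scaled CPM and 53 with centring, besides *Tnfrsf23* and *Tnfaip2* in WT. With a pseudocount of 0.1 TPM, 0 moved. With TMM-scaled CPM, as with centring, 17 of the 108 changed sign, 7 between subsets in WT and 10 in *Cd300a-/-* mice, and these 2 were the only ones past 0.5 before. With a pseudocount of 0.1 TPM, 0 changed sign.

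No paired analysis was made, since each group had 1 library of pooled hearts. Genes with few counts in the shallower SiglecF lo libraries are the least certain. The counting intervals hold no variation between mice, sorts or libraries, so no difference can be placed against biological spread.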
